A study of Mus musculus with 9 samples.

Results

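The expression of 10 genes of melanosome transport and biogenesis was examined in B16 cells, a pigmented mouse melanoma line. The genes were *Rab27a*, *Rab32*, *Rab38*, *Mlph*, *Myo5a*, *Hps1*, *Hps4*, *Hps5*, *Ap3b1* and *Dtnbp1*. They were taken by symbol from the 22972 gene names in the deposited values, and all 10 were found. A total of 9 RNA-seq libraries of wild-type B16 cells on flexible PDMS film, collected on day 3, were compared. Cells of the 3 control libraries (CTL) received no straining and no inhibitor, and those of the 3 mechanically stimulated libraries (MS) were cyclically strained for 72 h. The 3 libraries of the third group (Blebb) were made after 72 h with 100 ng/mL of blebbistatin, which inhibits myosin. The labels name blebbistatin alone for this group, whereas the paper names straining together with blebbistatin. The labels call the libraries of a group parallel experiments and do not say whether they came from separate cultures, so the p-values measure only the spread between these libraries.

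Melanosomes are the organelles in which melanin is made and stored, and they arise from endosomes. Adaptor complex AP-3 and the complexes BLOC-1 and BLOC-2 sort pigment enzymes from endosomes to maturing melanosomes, while BLOC-3 activates the small GTPases RAB32 and RAB38, which act in the same deliveries. Mature melanosomes carry RAB27A, which binds melanophilin (*Mlph*), and melanophilin binds myosin Va (*Myo5a*), the motor that holds melanosomes on actin at the cell periphery. Loss of many of these proteins dilutes coat color in mice, and some losses in humans underlie Griscelli and Hermansky-Pudlak syndromes. Blebbistatin acts on myosins of class II and not on myosin Va.

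The cells carried the markers of the melanocyte lineage. All 7 of 7 melanocyte markers were expressed, from 8.51 FPKM for *Mitf* in Blebb replicate 2 to 6318 FPKM for *Pmel* in CTL replicate 1 (FPKM, a fragment count relative to transcript length and sequencing yield). Of 6 markers each of fibroblasts, macrophages and keratinocytes, 0 reached a mean of 1 FPKM, and their sums were at most 0.567, 1.48 and 0.0314 FPKM in any library. *Dcn* and *Lum* of the fibroblast list, *Ptprc* and *Fcgr1* of the macrophage list and 4 of the 6 keratinocyte markers were listed at 0 throughout. Read depth is not known for these libraries, so precision was judged from replicate spread. In each group 1 library stood apart in the summed level of 6 targets of the stress factor ATF4, at 679 FPKM in CTL replicate 1, 508 FPKM in MS replicate 3 and 726 FPKM in Blebb replicate 2, against 202 to 322 FPKM in the others. On the first principal component of all genes tested (70.4% of the variance), CTL replicate 1 (-42.1) and Blebb replicate 2 (-43.9) stood apart, whereas MS replicate 3 (-10.02) lay beside Blebb replicate 1 (-7.29). Libraries also followed the GC content of genes to different degrees, with r across genes from -0.64 in MS replicate 1 to 0.55 in Blebb replicate 1.

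For the promoters, RefSeq sequences (GRCm38.p6) matched 9 of the 10 genes, all but *Rab38*. The 250 bases before each start were searched on both strands for the E-box CACGTG and for the M-box CATGTG or CACATG, the letters that MITF, the central transcription factor of melanocytes, is known to bind. These genes have 11 promoters in the table. The E-box was present in 3 of the 11 (*Mlph*, *Hps5* and one start of *Rab27a*), beside 6.02% of all 32851 promoters. For both starts of *Rab27a*, the bases just after the start were found in no GENCODE transcript of this gene. The M-box was present in 1 of the 11 (one start of *Hps1*), beside 12.3% of all promoters. Some promoters are shown 5′ to 3′ with the motifs in capitals. They are those of *Mlph*, the member with an E-box closest to its RefSeq start, and of the BLOC-3 partners *Hps1* and *Hps4*. The RNA levels of these partners are set side by side in the results. The E-box of *Mlph* begins 48 bases before the start (chr1:90914850-90915099, plus strand). The M-box of *Hps1* begins 14 bases before the start shown (chr19:42779979-42780228, minus strand), while its other start (chr19:42778647-42778896) has neither motif. *Hps4* has neither (chr5:112342845-112343094, plus strand).
Mlph: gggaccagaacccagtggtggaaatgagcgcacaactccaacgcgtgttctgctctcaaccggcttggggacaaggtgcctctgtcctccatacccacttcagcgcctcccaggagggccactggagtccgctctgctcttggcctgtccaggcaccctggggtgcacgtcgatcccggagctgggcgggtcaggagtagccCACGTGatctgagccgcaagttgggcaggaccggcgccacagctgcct
Hps1: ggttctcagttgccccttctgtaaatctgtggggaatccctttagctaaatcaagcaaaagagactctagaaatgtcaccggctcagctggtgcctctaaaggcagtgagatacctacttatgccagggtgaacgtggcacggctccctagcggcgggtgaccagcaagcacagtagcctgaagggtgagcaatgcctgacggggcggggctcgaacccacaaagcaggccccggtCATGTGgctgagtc
Hps4: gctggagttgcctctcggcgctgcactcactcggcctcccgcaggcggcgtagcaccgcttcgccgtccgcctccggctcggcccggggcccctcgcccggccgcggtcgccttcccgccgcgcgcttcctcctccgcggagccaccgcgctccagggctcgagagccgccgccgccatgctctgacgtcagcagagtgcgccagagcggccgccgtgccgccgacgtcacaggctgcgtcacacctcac
These matches describe letters in a window and not binding.

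All 10 genes were expressed in every library, and their levels spanned a wide range. FPKM is scaled by gene length, so levels of different genes were set side by side within a library. This scaling does not remove the GC trend of the libraries. G and C make up between 45.7% (*Myo5a*) and 57.0% (*Hps1*) of the longest transcripts of the members, so the order holds for FPKM as deposited. *Rab38* was the most abundant at a mean of 244 FPKM over the 9 libraries, followed by *Mlph* at 169 FPKM, *Dtnbp1* at 162 FPKM and *Rab27a* at 42.3 FPKM. *Ap3b1* (22.8 FPKM), *Hps1* (19.0 FPKM), *Myo5a* (14.3 FPKM), *Hps4* (11.0 FPKM), *Rab32* (9.74 FPKM) and *Hps5* (6.89 FPKM) came next. Neighbors in this order were compared within libraries by an exact two-sided sign-flip permutation test over the 9 libraries, with adjustment over the 9 neighboring pairs. The order came from the same libraries, which belong to 3 groups, and the p-values do not allow for either. *Rab38* lay above *Mlph*, *Dtnbp1* above *Rab27a*, *Rab27a* above *Ap3b1*, and *Rab32* above *Hps5* in 9 of 9 libraries (exact permutation p = 0.0039 each, the smallest possible, adjusted p = 0.0088). The largest of these steps was from *Dtnbp1* to *Rab27a*, a factor of 3.85. *Mlph* and *Dtnbp1* could not be separated (6 of 9 libraries, exact permutation, adjusted p = 0.551), nor could the neighbors from *Ap3b1* through *Hps1*, *Myo5a* and *Hps4* to *Rab32* (5 or 6 of 9 libraries, exact permutation, adjusted p between 0.169 and 0.418). By FPKM as deposited, melanophilin RNA was thus below *Rab38* and not separated from *Dtnbp1*, whereas that of its motor myosin Va was among the lower ones.

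**Figure D1:**
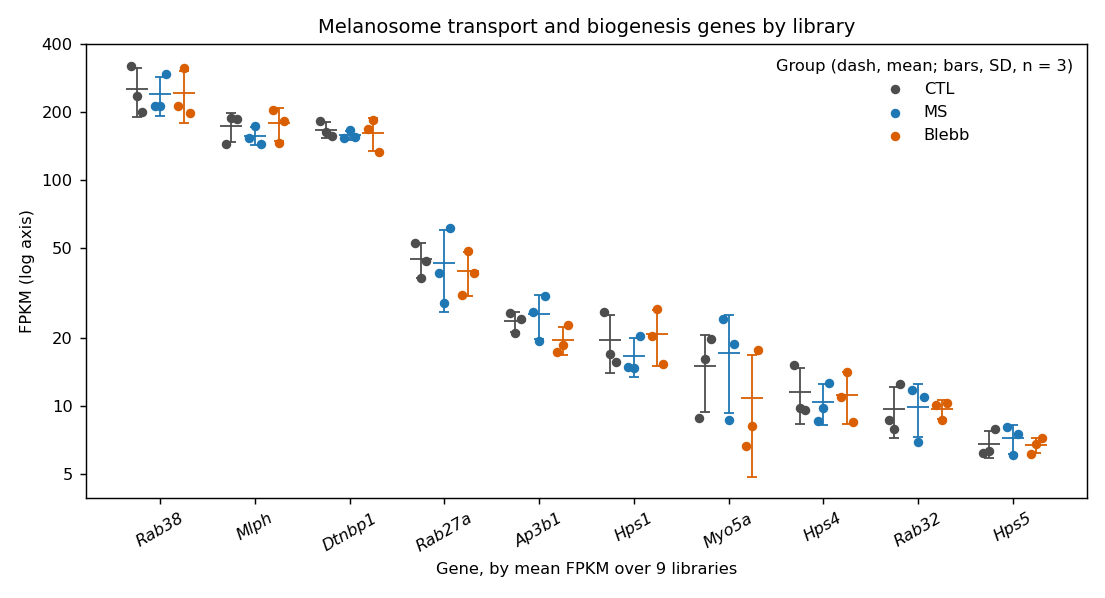
FPKM on a log axis of the 10 genes in the 9 libraries (points), with the mean and SD of each group (dash and bars, n = 3), ordered by mean level. *Rab38*, *Mlph* and *Dtnbp1* lie above 100 FPKM in all libraries and the other 7 genes below, and the points of the 3 groups overlap for each gene.

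Between groups, none of the 10 genes passed the test for a difference. At an adjusted p under 0.05 the count was 0 of 10 in MS against CTL, 0 of 10 in Blebb against MS and 0 of 10 in Blebb against CTL (limma, Benjamini-Hochberg adjustment over the 10109 genes that averaged 1 FPKM or more), beside 0% of all genes tested in each comparison. At an unadjusted p under 0.05 it was also 0 of 10 in each comparison, beside 0.158%, 1.25% and 0.089% of all genes. Without any difference this threshold would on average pass a fraction of 0.05 of the genes. The shares of all genes lay under that, so the 0 of 10 says little about the members. The 3 libraries of one group did not separate from those of another for any member, whereas the groups did not overlap for 3.17%, 3.73% and 2.08% of all genes in these comparisons. The first group was higher for 0.524%, 3.05% and 0.93% of all genes, and lower for 2.64%, 0.683% and 1.15%. The comparisons share libraries and are not independent of each other. The median log2 fold change of the members on the log2(FPKM + 1) scale, which understates the changes of low genes, was -0.068 in MS against CTL (all genes, -0.0018), -0.00067 in Blebb against MS (all genes, -0.0059) and -0.047 in Blebb against CTL (all genes, -0.013). The 95% interval of the difference stayed within a 2-fold change in either direction for 9 of the 10 genes in each comparison. The exception was *Myo5a* in all 3 comparisons. In bulk libraries, a lower share of cells with a transcript and less of it per cell cannot be told apart.

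**Figure D2:**
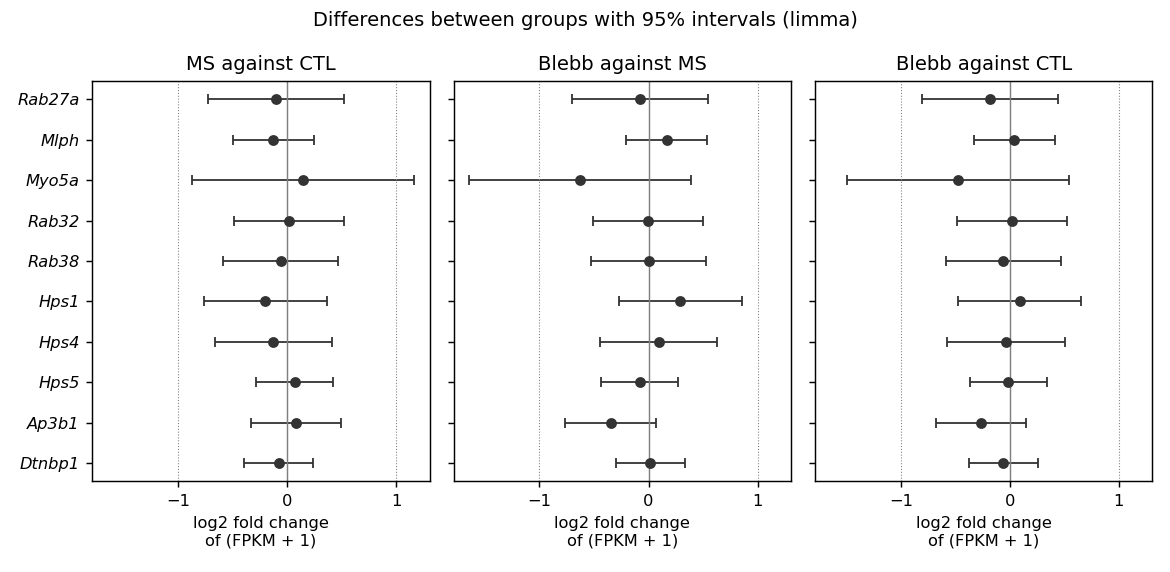
Log2 fold change of (FPKM + 1) for the 10 genes in the 3 comparisons, with 95% intervals from limma (n = 3 per group); the dotted lines mark a 2-fold change. All intervals include 0, and only those of *Myo5a* cross a dotted line.

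Among the transport genes, *Rab27a* (chr9:73044854-73097629, plus strand, GRCm38) encodes the GTPase that marks melanosomes for transport. It was expressed at 52.6, 36.9 and 43.9 FPKM in CTL replicates 1 to 3, at 38.9, 28.5 and 61.5 FPKM in MS and at 31.0, 48.3 and 38.9 FPKM in Blebb. Both the lowest and the highest level were found in MS, and the groups overlapped. On the log2 scale MS differed from CTL by -0.10 (standard error 0.28), Blebb from MS by -0.077 and Blebb from CTL by -0.18. *Rab27a* was the highest of its own group in CTL replicate 1, MS replicate 3 and Blebb replicate 2.

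*Mlph* (chr1:90915085-90951142, plus strand), the linker between RAB27A and the motor, was expressed at 144, 189 and 186 FPKM in CTL, at 153, 174 and 145 FPKM in MS and at 205, 146 and 182 FPKM in Blebb. The ranking was opposite to that of *Rab27a*, with the lowest value of each group in CTL replicate 1, MS replicate 3 and Blebb replicate 2. MS differed from CTL by -0.13 on the log2 scale and Blebb from MS by 0.17 (standard error 0.16 for both). Without the 3 libraries that stood apart these were -0.20 and 0.24 (standard error 0.13, adjusted p = 1.00 and 0.998, limma).

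*Myo5a* (chr9:75071015-75223688, plus strand) was the most variable member, with an SD of 0.64 on the log2 scale over the 9 libraries (percentile 94.99 of all genes tested). Its level was 8.86, 16.2 and 19.8 FPKM in CTL, 24.2, 8.64 and 18.7 FPKM in MS and 6.64, 8.10 and 17.7 FPKM in Blebb. Each group held low and high libraries, and the 4 values under 10 FPKM were spread over all 3 groups. The mean was 10.8 ± 5.99 FPKM (SD, n = 3) in Blebb, 17.2 ± 7.90 FPKM in MS and 14.9 ± 5.55 FPKM in CTL. The log2 fold change of -0.63 in Blebb against MS had a standard error of 0.45 and a 95% interval from -1.65 to 0.39 (adjusted p = 0.897, limma), and that in Blebb against CTL was -0.48. In MS against CTL it was 0.15, with an interval from -0.87 to 1.17, and it was -0.16 without CTL replicate 1 and -0.14 without MS replicate 1. The lowest levels were found in libraries with high FPKM for genes of high GC content (r of 0.55, 0.54 and 0.45 in Blebb replicates 1 and 2 and CTL replicate 1) and in MS replicate 2 (r of 0.057). G and C make up 45.7% of the longest *Myo5a* transcript. After each library's GC trend was taken out, the SD over the libraries was 0.46 and the difference between Blebb and MS was -0.45. Without MS replicate 2 the difference was -1.03, without Blebb replicate 3 it was -1.02, and without MS replicate 1 it was -0.34.

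*Rab38* and *Rab32*, the paralogous GTPases of cargo delivery, were expressed at very different levels. *Rab38* (chr7:88430273-88491572, plus strand) was at 319.6, 234 and 200.45 FPKM in CTL, at 212, 213 and 294 FPKM in MS and at 213, 313 and 199 FPKM in Blebb. Its highest value in each group was in the library that stood apart, and its group means differed little, at 251.5 ± 61.4, 239.6 ± 47.2 and 242 ± 62.5 FPKM (SD, n = 3). MS differed from CTL by -0.060 on the log2 scale, and Blebb from MS by 0.00022 (standard error 0.23). *Rab32* (chr10:10545002-10558265, minus strand) was at 8.65, 7.87 and 12.5 FPKM in CTL, at 11.7, 6.94 and 11.0 FPKM in MS and at 10.1, 8.62 and 10.3 FPKM in Blebb. Only 0.16% of its variance lay between the groups, and its log2 fold changes were 0.021 and -0.0016 in the same comparisons (standard error 0.22). The ratio of *Rab38* to *Rab32* was between 16.03 in CTL replicate 3 and 37.0 in CTL replicate 1, so the paralogs did not vary together over the libraries (r = -0.27, n = 9).

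The subunits of BLOC-3, the exchange factor of RAB32 and RAB38, were expressed in a similar proportion in all libraries. *Hps1* (chr19:42755105-42779978, minus strand) was at 26.0, 17.0 and 15.6 FPKM in CTL, at 14.9, 14.6 and 20.4 FPKM in MS and at 20.3, 26.9 and 15.3 FPKM in Blebb. *Hps4* (chr5:112343083-112378414, plus strand) was at 15.2, 9.80 and 9.53 FPKM in CTL, at 8.57, 9.82 and 12.7 FPKM in MS and at 11.0, 14.1 and 8.45 FPKM in Blebb. Both genes were highest in the same library of each group, and their levels went together over the libraries (r = 0.95, n = 9, the highest of the 45 pairs of members). The order of the lower libraries differed, with MS replicate 2 the lowest of all for *Hps1* but not for *Hps4*. Both genes also followed the GC trend of the libraries (r = 0.81 for *Hps1* and 0.80 for *Hps4*, n = 9), and its part in their likeness was not tested. This was not particular to BLOC-3, with an r of 0.835 for *Dtnbp1*, -0.935 for *Myo5a* and -0.734 for *Hps5*. *Hps1* exceeded *Hps4* by a factor between 1.49 and 1.90 in all libraries, a spread of 1.28-fold, while each gene alone spread by 1.84-fold and 1.80-fold. The ratio of *Rab38* to *Hps4* spread by as little, 1.28-fold, from 19.4 to 24.8. The ratio was 1.69 ± 0.0512 (SD, n = 3) in CTL, 1.61 ± 0.124 in MS and 1.86 ± 0.0416 in Blebb. The 3 Blebb libraries lay above all CTL and MS libraries, between 1.82 and 1.90 against 1.49 to 1.74. By exact permutation, two-sided, p was 0.1 for Blebb against MS and for Blebb against CTL, the smallest p that 3 against 3 allows, and the adjusted p over the 15 ratio tests was 0.75 (exact permutation). For *Hps1* alone, Blebb differed from MS by 0.29 on the log2 scale (limma, standard error 0.25, adjusted p = 0.897) and MS from CTL by -0.20. The first of these was 0.099 without Blebb replicate 2, 0.48 without Blebb replicate 3 and 0.16 after removal of the GC trend. For *Hps4* these differences were 0.093 and -0.13 (standard error 0.24). With a term for the libraries that stood apart, *Hps1* in Blebb against MS had an unadjusted p of 0.037 (adjusted p = 0.534, limma). With this term 586 of the 10109 genes had an unadjusted p under 0.05 in this comparison, against 126 without it (limma). *Hps1*, *Hps4*, *Myo5a* and *Rab38* overlap annotated genes or pseudogenes on the other strand (1, 3, 2 and 1), and *Rab27a*, *Hps4*, *Hps5* and *Ap3b1* overlap 1 each on the same strand. Reads of such neighbors may not have been told apart, since no source used here says that counting used the strand.

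**Figure D3:**
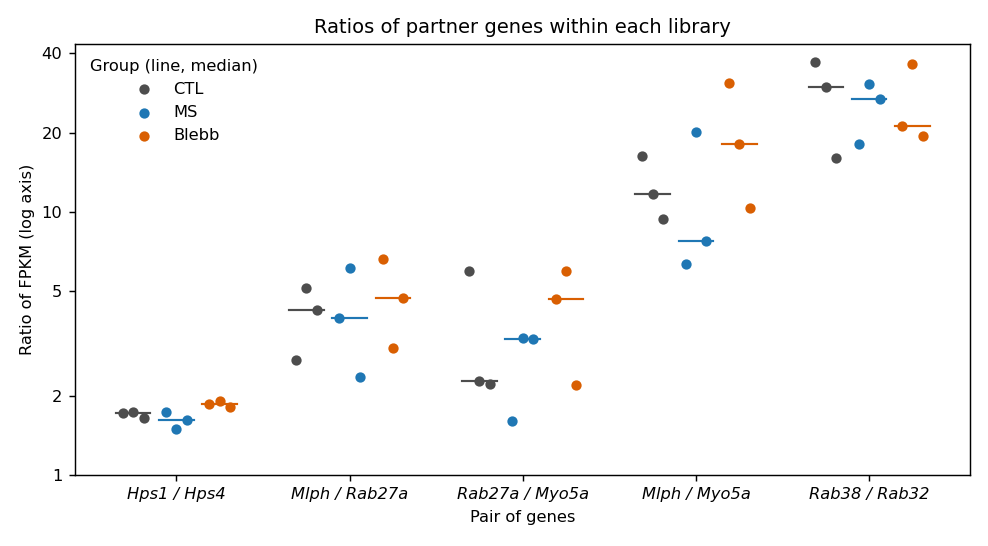
Ratio of FPKM within each library (log axis) for 5 pairs of partner genes, with points for libraries and a line for the median of each group. The *Hps1*/*Hps4* ratio stays between 1.49 and 1.90, whereas *Mlph*/*Myo5a* runs from 6.33 to 30.8.

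The 3 genes whose proteins form the transport complex were less alike in their levels over the libraries. The ratio of *Mlph* to *Rab27a* was between 2.35 in MS replicate 3 and 6.60 in Blebb replicate 1, that of *Rab27a* to *Myo5a* between 1.61 and 5.96, and that of *Mlph* to *Myo5a* between 6.33 and 30.8. The median ratio of *Mlph* to *Myo5a* was 18.1 in Blebb, 7.74 in MS and 11.7 in CTL. The groups overlapped for each of the 3 ratios (exact permutation test, p between 0.3 and 1, adjusted p = 1).

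*Hps5* (chr7:46760466-46796064, minus strand), a subunit of BLOC-2, was the lowest and one of the steadiest members. It was at 6.20, 6.29 and 7.89 FPKM in CTL, at 8.05, 6.02 and 7.46 FPKM in MS and at 6.13, 6.77 and 7.20 FPKM in Blebb, and the groups overlapped. MS differed from CTL by 0.068 on the log2 scale and Blebb from MS by -0.081 (standard error 0.16). The other BLOC-2 subunits were near this level, with means of 8.66 FPKM for *Hps3* and 7.58 FPKM for *Hps6*.

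*Ap3b1* (chr13:94358960-94566317, plus strand), the beta subunit of AP-3, was the member with the largest share of variance between groups, at 38.0% (median of the members 6.43%, of all genes 12.7%, and 25% where groups do not differ). Its level was 25.7, 21.004 and 24.2 FPKM in CTL, 26.0, 19.4 and 30.8 FPKM in MS and 17.2, 18.7 and 22.7 FPKM in Blebb. A pair of Blebb libraries lay below all others, while the other lay within the range of CTL and MS. Blebb differed from MS by -0.35 on the log2 scale (standard error 0.18, 95% interval -0.76 to 0.067, unadjusted p = 0.090, adjusted p = 0.897, limma), and the values were -0.27 for Blebb against CTL and 0.080 for MS against CTL. With MS replicate 2 left out the difference between Blebb and MS was -0.52, and with MS replicate 3 left out -0.20. Removing the GC trend gave -0.26, and leaving out the libraries that stood apart gave -0.18. Of the 7 AP-3 genes, *Ap3b1* ranked below 2 others in each library, *Ap3d1* (52.0 FPKM) and *Ap3s1* (31.7 FPKM), and the other beta subunit, *Ap3b2*, was listed at 0 in 8 of 9 libraries.

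*Dtnbp1* (chr13:44922075-45002147, minus strand) encodes dysbindin, a subunit of BLOC-1. It was at 182, 163 and 156 FPKM in CTL, at 153, 167 and 155 FPKM in MS and at 168, 184 and 132 FPKM in Blebb. The spread was small, with an SD of 0.14 on the log2 scale, the groups overlapped, and MS differed from CTL by -0.076 and Blebb from MS by 0.017 (standard error 0.14). *Dtnbp1* was the highest of the 8 BLOC-1 genes in every library, by a factor of 2.25 to 3.31 over the next, and made up 47.0% to 57.0% of their summed FPKM. The other subunits had means between 3.71 FPKM (*Bloc1s3*) and 59.8 FPKM (*Bloc1s1*).

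**Figure D4:**
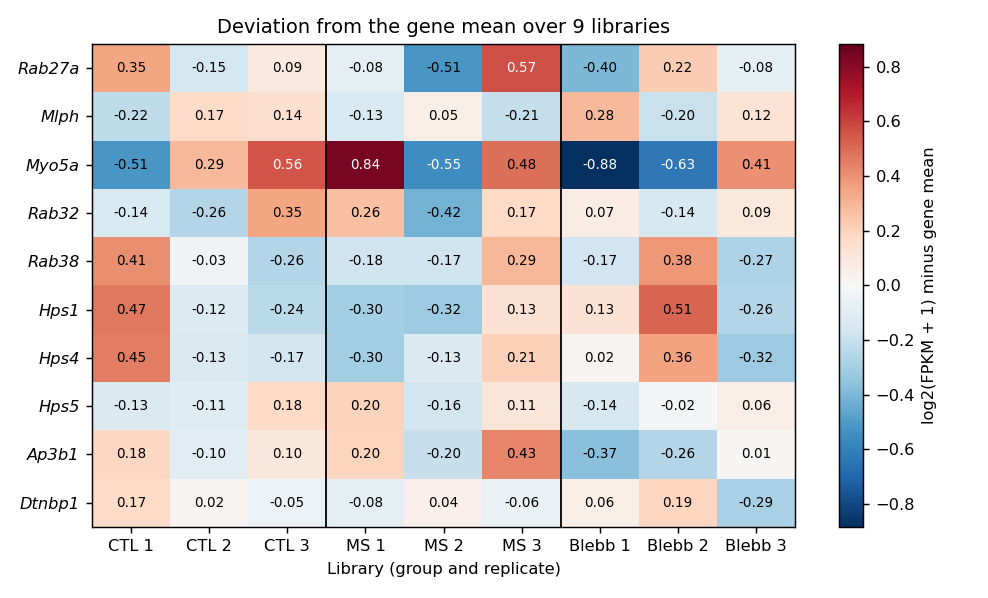
Deviation of log2(FPKM + 1) from the mean of each gene over the 9 libraries (color and number), with genes in rows and libraries in columns; black lines divide the groups. *Myo5a* runs from -0.88 to 0.84, while *Rab38*, *Hps1* and *Hps4* are high together in CTL replicate 1, MS replicate 3 and Blebb replicate 2.

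For each member, less of the variance lay between groups than between libraries of one group, and the libraries moved the members in different directions. Of the 45 pairs of members, 5 had an r over 0.8 across the 9 libraries and 3 an r under -0.7, with a median of 0.008; the libraries share GC trend and stress level, and these values are descriptions. *Rab38* went with *Hps4* (r = 0.93) and *Hps1* (r = 0.89), *Rab32* and *Myo5a* went with *Hps5* (r = 0.85 and 0.83), and *Mlph* was opposite to *Rab38* (r = -0.78). The library with the highest sum of ATF4 targets in its group was also the highest of that group in all 3 groups for 4 of the 10 members (*Rab27a*, *Rab38*, *Hps1* and *Hps4*; 22.8% of all genes tested) and the lowest for 1 (*Mlph*; 23.0% of all genes). Chosen after its values were seen, *Tyr*, which encodes tyrosinase, was in these libraries at 76.0, 80.5 and 74.9 FPKM, against 40.2 to 49.7 FPKM in the others. Pigment genes did not all do so. *Pmel* and *Dct* were also highest of their groups there, whereas *Mlana* was lowest in CTL replicate 1 (970 FPKM) and Blebb replicate 2 (1072 FPKM). *Gpnmb* was lowest of its group in MS replicate 3 and Blebb replicate 2. The part of the stress level and of the GC trend in these patterns was not tested. Over the 7004 genes that averaged 5 FPKM or more, the libraries' pattern of *Rab38* was most like that of *Ctns*, *C1qtnf5* and *Rab5b* (r = 0.99 each, n = 9), that of *Hps4* like *Pld3*, *Smpd1* and *Plbd2* (r = 0.996, 0.995 and 0.994), and that of *Hps1* like *Zdhhc4*, *Tpra1* and *Arid5a* (r = 0.99). *Rab27a* was most like *Specc1l*, *Neo1* and *Pacsin2* (r = 0.99 to 0.98), *Mlph* like *Sac3d1*, *Rbm14* and *Smtn* (r = 0.98), *Myo5a* like *Stx16*, *Fndc3b* and *Ddx5* (r = 0.99), and *Ap3b1* like *Prpf6*, *Plekha1* and *Micu2* (r = 0.99 to 0.97). The best match was weaker for *Hps5* (*Tada2a*, r = 0.97), *Rab32* (*Arhgap10*, r = 0.96) and *Dtnbp1* (*Itm2c*, r = 0.96). These matches are the highest of 7004 values of r over 9 libraries. No background was computed for them, so they are descriptions and show no link between the genes.

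Other genes of the pathway were measured beside the members. Of a list of 67 genes, 65 were analyzed (*Rab9a* and *Vamp7* were not analysed here) and 59 averaged 1 FPKM or more. In each comparison 0 of them passed the adjusted threshold. A single gene, *Snap23*, named after its values were seen, had an unadjusted p under 0.05 in Blebb against MS, beside 1.25% of all genes. *Snap23*, a SNARE of membrane fusion, averaged 3.71 FPKM in Blebb and 5.96 FPKM in MS, and the groups overlapped (log2 difference -0.55, adjusted p = 0.897, limma). Of the 59 genes, 28 were above 0 in MS against CTL (median -0.011), 29 in Blebb against MS (median -0.010) and 27 in Blebb against CTL (median -0.0080). The groups did not overlap for 2 of them in MS against CTL, *Sgsm2* and *Vps16*, which were lower in MS with log2 fold changes of -0.15 for both, beside 3.17% of all genes. There were 2 such genes in Blebb against MS (3.73% of all genes) and 2 in Blebb against CTL (2.08% of all genes), so these counts were near those over all genes. *Ankrd27*, an effector of RAB32 and RAB38, was at 10.8 FPKM in Blebb, 9.28 FPKM in MS and 9.62 FPKM in CTL, with the Blebb libraries above all others (log2 fold change 0.20 against MS and 0.15 against CTL). *Vps16* also lay higher in Blebb than in MS (0.21), and *Stx3* higher in Blebb than in CTL (0.13), without overlap. None of these passed the threshold.

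By role, the 7 BLOC-1 subunits beside *Dtnbp1* lay between -0.011 (*Bloc1s4*) and 0.26 (*Bloc1s2*) on the log2 scale in MS against CTL, and between -0.27 (*Bloc1s2*) and 0.11 (*Bloc1s4*) in Blebb against MS. The AP-3 subunits lay between -0.18 (*Ap3m2*) and 0.35 (*Ap3m1*) in MS against CTL and between -0.47 (*Ap3m1*) and 0.16 (*Ap3m2*) in Blebb against MS. The AP-1 and *Kif13a* genes of the parallel cargo route lay between -0.17 (*Kif13a*) and 0.083 (*Ap1s1*) in MS against CTL. Among other motors and transport genes, *Dynlt3*, a dynein light chain, was at 0.58 in MS against CTL, and *Kif3a*, a kinesin, was at -0.87 in Blebb against MS. The 10 genes of pigment enzymes and melanosome matrix lay around a median of -0.13 in MS against CTL, from -0.33 (*Pmel*) to 0.068 (*Tyr*), and of 0.076 in Blebb against MS, from -0.029 (*Tyrp1*) to 0.39 (*Slc45a2*). None of these passed the threshold in any comparison, and no change can be read from these values. Of the other effectors of RAB27A, *Exph5* was listed at 0 in all libraries and *Myrip* was at most 0.0203 FPKM. *Sytl2* was expressed at a mean of 13.0 FPKM and *Sytl4* at 1.04 FPKM.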

How the data were processed

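RNA was extracted with TRIzol and libraries were prepared with a SMARTER kit, and the authors deposited FPKM, 1 value for each gene in each library. In CTL replicate 1 the header gives a sample name in place of the unit, and the values were read as FPKM. The submitters' processing notes name GRCm38 (mm10), and the aligner, the counting program and the annotation are not given in the sources used here. No common step was found between the low values of pairs of libraries, so reads were not recovered. Groups and replicate numbers were taken from the labels. The 10109 genes that averaged 1 FPKM or more were fitted on the log2(FPKM + 1) scale in limma 3.58.1 (R 4.3.3) on the 3 groups with a mean-variance trend, two-sided, with Benjamini-Hochberg adjustment and a threshold of 0.05. The fit was tested on simulated data. Ratios and the order of levels were compared by exact permutation (scipy 1.17.1), and ratios used FPKM without a pseudocount. GC content came from the longest GENCODE M21 transcript of each symbol (95.6% of the genes tested). Positions are from GENCODE M21. Plots were drawn with matplotlib 3.10.9. The members, lists and tests were chosen with earlier results of these data known. The genes named are the 10 members, the pathway genes with the largest and smallest differences, or the highest or lowest levels in their list, and the 3 genes most like each member. Pathway genes whose groups did not overlap and the other effectors of RAB27A were named after their values were seen. As alternatives, the pseudocount was 0.1, the minimum was dropped or set to 5 FPKM, scaling was by median-of-ratios factors or quantiles, the trend was dropped, the fit held the compared groups alone, and further settings were the replicate number as a block, removal of the GC trend (loess, span 0.5), the 3 libraries that stood apart left out or given a term, and each library left out.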

Additional observations from a re-analysis of the deposited data

How the results depend on the processing

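Under every alternative run, 0 members and 0 pathway genes passed an adjusted p of 0.05 in any comparison (limma). Over all genes it was 0 apart from 0 to 1 with each library left out in MS against CTL and in Blebb against MS, where *Gm49527* alone passed once MS replicate 2 was omitted. Of 360 member values under the settings that kept all libraries or set aside those that stood apart, 327 kept their direction and 33 did not, and of 270 with single libraries left out, 45 did not. Many of these values could not change. The log2 fold change is the same by design when only the minimum, the trend, the groups fitted or a block differs. The same holds when the library left out belongs to neither group compared. The counts that kept their direction therefore overstate how steady the directions were. After removal of the GC trend, both with the replicate block and without it, *Rab32* was at -0.016 and *Dtnbp1* at 0.0078 in MS against CTL, *Rab27a* at 0.057, *Rab32* at 0.10, *Hps4* at -0.026 and *Dtnbp1* at -0.099 in Blebb against MS, and *Rab38* at 0.024 and *Hps5* at 0.028 in Blebb against CTL. Without the 3 libraries that stood apart, *Myo5a* was at -0.28, *Rab32* at -0.12, *Hps5* at -0.014, *Ap3b1* at -0.0041 and *Dtnbp1* at 0.0012 in MS against CTL, and *Rab27a* at 0.057, *Rab32* at 0.15, *Rab38* at -0.045 and *Dtnbp1* at -0.099 in Blebb against MS. Under quantile normalization *Rab32* was at 0.044, *Rab38* at -0.033, *Hps5* at 0.013 and *Dtnbp1* at -0.025 in Blebb against MS and *Hps5* at 0.054 in Blebb against CTL. With median-of-ratios factors *Rab32* was at 0.021 in Blebb against MS and *Hps5* at 0.012 in Blebb against CTL, and with a pseudocount of 0.1 *Rab32* was at 0.0013 in Blebb against MS. The cause of these reversals was not tested.

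With each library left out, the values that changed sign ran, in MS against CTL, from -0.39 to 0.15 for *Rab27a*, from -0.16 to 0.55 for *Myo5a*, from -0.11 to 0.23 for *Rab32*, from -0.22 to 0.13 for *Rab38*, from -0.35 to 0.012 for *Hps1*, from -0.27 to 0.074 for *Hps4*, from -0.0091 to 0.17 for *Hps5* and from -0.065 to 0.25 for *Ap3b1*. In Blebb against MS they ran from -0.33 to 0.21 for *Rab27a*, from -0.21 to 0.13 for *Rab32*, from -0.20 to 0.16 for *Rab38*, from -0.077 to 0.26 for *Hps4* and from -0.084 to 0.15 for *Dtnbp1*. In Blebb against CTL they ran from -0.087 to 0.17 for *Mlph*, from -0.10 to 0.20 for *Rab32*, from -0.26 to 0.13 for *Rab38*, from -0.10 to 0.30 for *Hps1*, from -0.20 to 0.17 for *Hps4*, from -0.067 to 0.085 for *Hps5* and from -0.16 to 0.077 for *Dtnbp1*. Others kept their sign but moved by over 1.5 times. In MS against CTL these were *Mlph* (-0.25 to -0.058) and *Dtnbp1* (-0.12 to -0.013), in Blebb against MS *Mlph* (0.059 to 0.30), *Myo5a* (-1.03 to -0.34), *Hps1* (0.099 to 0.48), *Hps5* (-0.19 to -0.0042) and *Ap3b1* (-0.52 to -0.20), and in Blebb against CTL *Rab27a* (-0.33 to -0.022) and *Myo5a* (-0.87 to -0.22). At an unadjusted p under 0.05 (limma), *Myo5a* and *Ap3b1* in Blebb against MS passed without MS replicate 2 and without Blebb replicate 3, and *Hps1* with a term for the libraries that stood apart. Over all 10109 genes, 598, 934 and 586 passed in these 3 settings, against 126 in the main fit, so many genes shifted with the members. Beyond *Myo5a*, the interval left the 2-fold range for *Rab27a* in Blebb against CTL (without CTL replicate 2 or Blebb replicate 2) and for *Hps1* in Blebb against MS (without MS replicate 3 or Blebb replicate 3).

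The labels do not say whether same-numbered libraries belong together. The deviations of same-numbered libraries had an r across genes between -0.785 and 0.835, and 0 of 9 libraries went best with their own number. The library that stood apart has a different number in each group, so this comparison cannot decide whether the numbers pair the libraries. With the replicate block 0 genes passed in each comparison, and 14, 119 and 10 genes had an unadjusted p under 0.05 in MS against CTL, Blebb against MS and Blebb against CTL, against 16, 126 and 9 without it. The read depth is unknown, so counting error could not be set apart from other spread.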

Other observations

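Chosen after their values were seen, *Kif5b*, *Oca2* and *Slc24a5* of the same lists spread widely over the libraries. *Kif5b*, the heavy chain of conventional kinesin, was at 0.708, 7.97 and 11.8 FPKM in CTL, at 23.1, 5.06 and 2.35 FPKM in MS and at 3.16, 0.686 and 10.8 FPKM in Blebb, so that each group held a library under 4 FPKM and one over 10 FPKM. *Oca2*, a melanosomal membrane protein, was at 11.8 FPKM in CTL replicate 1, 9.06 FPKM in MS replicate 3 and 10.02 FPKM in Blebb replicate 2, and at 1.76 to 2.93 FPKM in the others. *Slc24a5*, a melanosomal ion exchanger, was highest in the same libraries, at 584 FPKM, 499 FPKM and 602 FPKM, against 182 to 245 FPKM in the others. These are the libraries with the highest sums of ATF4 targets in their groups, and the groups overlapped for all 3 genes. Not all genes of the pigment list were highest of their groups there. *Mlana* and *Gpnmb* were not, and *Tyrp1* was at 2078 FPKM in Blebb replicate 2 against 2240 FPKM in Blebb replicate 3. The other genes of the pigment list were highest there, a pattern shown by 22.8% of all genes tested.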
